A study of Homo sapiens with 9 samples.

Results

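The accessible chromatin around 9 genes that are known targets of the transcription factor AP-1 or of cellular stress was examined in the liver cancer line HepG2. The genes were CCN1, CCN2, PLAUR, MMP1, MMP3, MMP10, HMOX1, GDF15 and CXCL8, of 20136 protein-coding genes in the annotation. The cells, of human origin, were transfected by RNAiMAX at 50 nM with siINO80#1 or siINO80#2, which are different siRNAs to INO80, or with NTG, a non-targeting siRNA that served as control. They were assayed 72 hours later by ATAC-seq, in which a transposase cuts open DNA. INO80 is the motor subunit that gives its name to a nucleosome remodeling complex. Each siRNA had 3 samples from independent transfections, but its 3 samples share 1 deposited peak list, so 3 lists stand for 9 samples and no value has a replicate spread or a test. All 3 groups are the same line and differ, as far as the labels say, in the siRNA alone. How far each siRNA lowered INO80 was not analysed here.

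A peak was assigned to a gene when it overlapped the gene body or the 50 kb on either side (GENCODE, GRCh37), whatever its height. Overlapping peaks of the 3 lists were joined into regions, and the windows of the 9 genes held 55 of the 111260 regions of the genome. A region was called a start-site region when the summit of its strongest peak lay within 1 kb of any annotated transcription start, and distal otherwise, which gave 20 start-site and 35 distal regions. Of the 20 start-site regions, 8 lay at starts of the 9 genes themselves and 12 at starts of neighboring genes. The 3 metalloproteinase genes lie next to each other on chromosome 11, so that 9 regions fell in more than 1 window. Each region was counted once. Fold enrichment is the ratio of reads at the summit to the local background of the same list, and the within-list percentile is the share of the peaks of that list with a lower fold enrichment. Neither is a level that can be compared as signal between lists, and in bulk samples a site open in fewer cells and one less open in every cell cannot be told apart.

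AP-1 is a dimer of JUN and FOS family proteins that binds the heptamer TGACTCA and is switched on by growth factors, cytokines and stress kinases. Its classical targets encode secreted proteins that remodel the matrix around the cell, the receptor that focuses plasmin activity on the cell surface, and chemokines. HMOX1 and GDF15 belong to the stress responses driven by NRF2, ATF4 and p53, and some of their elements contain an AP-1 heptamer within a longer site. Such genes are often controlled from enhancers at a distance as well as from the promoter.

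Among the regions of the 9 windows, 4 were found with both INO80 siRNAs and not with NTG. Of these, 2 were distal, 1 upstream of CCN2, which encodes a matricellular protein, and 1 upstream of MMP3, which encodes the protease stromelysin-1. The other 2 were start-site regions, 1 at the start of MMP10 (stromelysin-2) and 1 upstream of HMOX1 (heme oxygenase-1, which degrades heme) at the start of a non-coding RNA. The sequences of 3 of them are printed from the GRCh37 reference genome on the strand of the named gene. The 2 distal stretches, around the summit, are shown for their heptamers, and the MMP10 stretch for the promoter that was listed with the INO80 siRNAs alone. The MMP10 stretch covers only the upstream side of its region and runs upstream past the edge of the region at position 102651451. Capitals mark TGACTCA or its reverse complement TGAGTCA in the first 2. The last holds neither and has no capitals, and it was added after its values were seen.
CCN2 upstream region, chr6:132317156-132317355, minus strand: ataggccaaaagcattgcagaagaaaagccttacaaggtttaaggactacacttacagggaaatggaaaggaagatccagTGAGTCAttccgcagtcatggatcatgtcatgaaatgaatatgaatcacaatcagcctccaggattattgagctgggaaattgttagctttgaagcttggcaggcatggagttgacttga
MMP3 upstream region, chr11:102724750-102724949, minus strand: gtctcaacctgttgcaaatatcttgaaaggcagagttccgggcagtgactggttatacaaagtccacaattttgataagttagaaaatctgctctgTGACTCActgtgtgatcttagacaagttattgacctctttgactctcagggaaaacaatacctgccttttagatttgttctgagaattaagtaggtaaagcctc
MMP10 sequence before the start, chr11:102651360-102651559, minus strand: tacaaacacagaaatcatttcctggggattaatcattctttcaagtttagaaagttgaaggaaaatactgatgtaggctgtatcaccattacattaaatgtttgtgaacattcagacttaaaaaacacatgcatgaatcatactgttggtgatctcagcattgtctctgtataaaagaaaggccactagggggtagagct

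The CCN2 region lay at chr6:132317148-132317352, 44.7 kb upstream of the gene within an intron of the non-coding gene LINC01013. NTG had no listed peak there, siINO80#1 a fold enrichment of 3.31 (percentile 54.3) and siINO80#2 one of 4.07 (percentile 69.4). Both values were therefore above the middle of their lists. The heptamer was centered 16 bp from the summit and overlapped a match to GGAATG, the core recognized by the TEAD factors. The MMP3 region lay at chr11:102724562-102724974, 10.5 kb upstream of the gene and outside any annotated gene. It was listed with siINO80#1 at 2.92-fold (percentile 41.5) and with siINO80#2 at 3.16-fold (percentile 49.2), both below the middle of their lists. Its heptamer was centered on the summit. No other of the 35 distal regions contained the heptamer within 100 bp of the summit.

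The HMOX1 region reached 3.34-fold with siINO80#1 (percentile 54.9) and 3.04-fold with siINO80#2 (percentile 45.6). The MMP10 region lay at chr11:102651271-102651451 with its summit 34 bp upstream of the MANE Select start (that of the reference transcript of the gene). It reached 4.39-fold with siINO80#1 (percentile 72.6) and 4.10-fold with siINO80#2 (percentile 70.2), the highest smaller percentile of the 4. A GGAATG match was the only one of the 7 motifs searched within 100 bp of its summit.

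The absence of a peak from the NTG list does not show closed chromatin, since a list holds only peaks above a −log10 q of 1.30. With NTG set to 1, the depth recovered from the peak values was 1.43 for siINO80#1 and 1.44 for siINO80#2. Scaled to the depth of NTG, the reads at the MMP10 summit were 18.2 and 17.4 with the 2 siRNAs, against 12 as the fewest reads of any listed NTG peak with a background within 10%. The CCN2 region had 14.7 and 17.4 scaled reads, also against 12. The HMOX1 region had 19.6 against 14 with siINO80#1 and 14.6 against 12 with siINO80#2. The MMP3 region had 11.9 and 13.2 against 12, close to the fewest reads listed in NTG. On which side of 12 its siINO80#1 value falls depends on how depth is scaled. A −log10 q of at least 5 left the MMP10 region in both siINO80 lists, the HMOX1 region in siINO80#1 alone and the CCN2 region in siINO80#2 alone, and removed the MMP3 region.

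**Figure D1:**
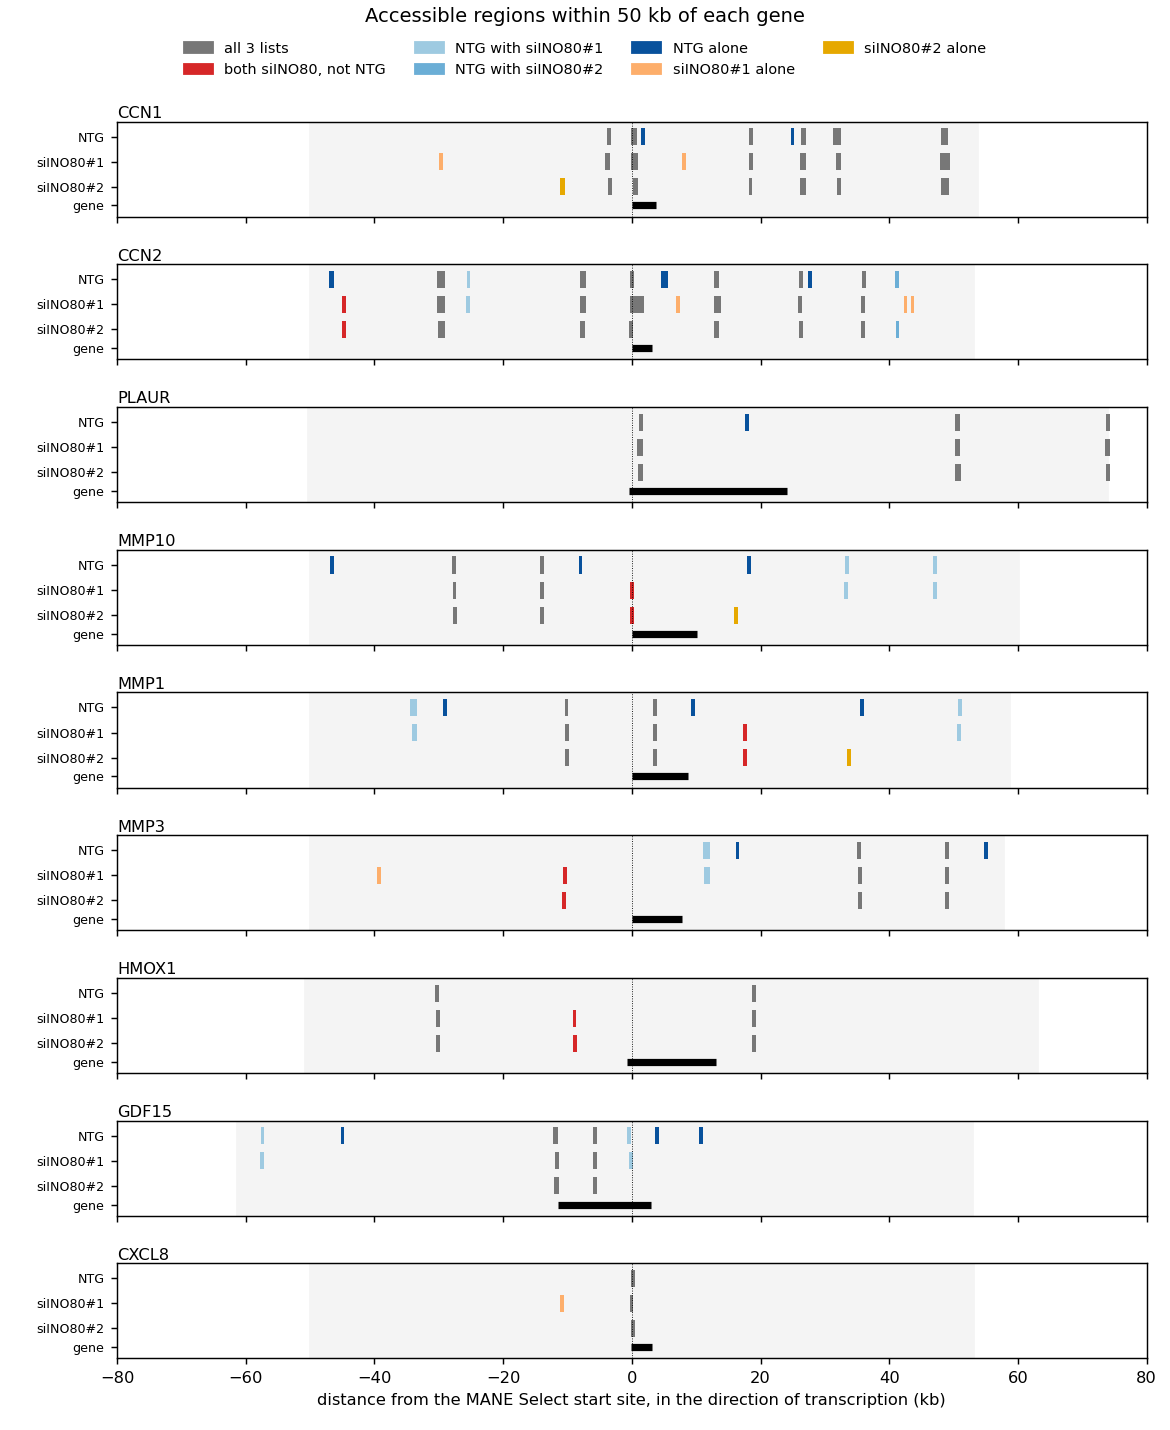
Regions within 50 kb of each gene, with distance from the MANE Select start site in kb on the horizontal axis (positive in the direction of transcription) and 1 row per peak list. Each mark spans the peaks of 1 list in a region and is colored by the lists that hold the region, the black bar is the gene body and the shaded area is the window. The 4 red regions lie upstream of CCN2, at MMP10 (shown also in the window of MMP1), upstream of MMP3 and upstream of HMOX1.

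To ask whether distal regions of the 9 genes were found with both INO80 siRNAs alone more often than elsewhere, their share was read against the genome. Of 35 distal regions, 2 were in both siINO80 lists and not NTG, or 5.71% (exact 95% binomial interval 0.700 to 19.2, counting error only), against 5.71% of all distal regions. With start-site regions included the count was 4 of 55, or 7.27% (2.02 to 17.6), against 5.19%. At equal list size, where the 53113 strongest peaks of each list were used, it was 2 of 26 distal regions, or 7.69%, against 7.27%. By gene, CCN2 and MMP3 had a distal region of this kind, 2 of 9 genes, whereas 19.0% of all protein-coding genes had at least 1. These counts depend on the annotation, because the HMOX1 region is distal when only protein-coding starts are used. The share was then 3 of 42 distal regions, or 7.14%, and 3 of 9 genes had one. No genome share is given for that setting. When any region was counted, 5 of 9 windows (CCN2, MMP1, MMP3, MMP10 and HMOX1) held one, against 23.6% of genes, but the windows of MMP1 and MMP10 shared the same region. The share of distal regions was thus near the background.

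The other classes held more of the distal regions. In all 3 lists there were 10 of 35, or 28.6% (14.6 to 46.3), against 20.3% of distal regions in the genome, and 9 of the 10 lay within 50 kb of CCN1, CCN2 or GDF15. In NTG alone there were 11, or 31.4% (16.9 to 49.3), against 26.8%. Of the rest, 7 were in siINO80#1 alone (23.8% of distal regions in the genome), 2 in siINO80#2 alone (13.3%) and 3 in NTG with siINO80#1 (7.31%). The intervals of the shares in all 3 lists and in NTG alone include the genome values. Among the 20 start-site regions, 12 were in all 3 lists, against 54.3% of start-site regions in the genome, and 2 in both siINO80 lists and not NTG, or 10.0% (1.24 to 31.7), against 3.06%. A further 3 were in NTG with siINO80#1 (9.01% in the genome), 1 in NTG with siINO80#2 (1.86%) and 2 in NTG alone (14.5%). By list, NTG had 42 of the 55 regions, siINO80#1 39 and siINO80#2 29, in the order of the list sizes of 69730, 69333 and 53113 peaks.

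**Figure D2:**
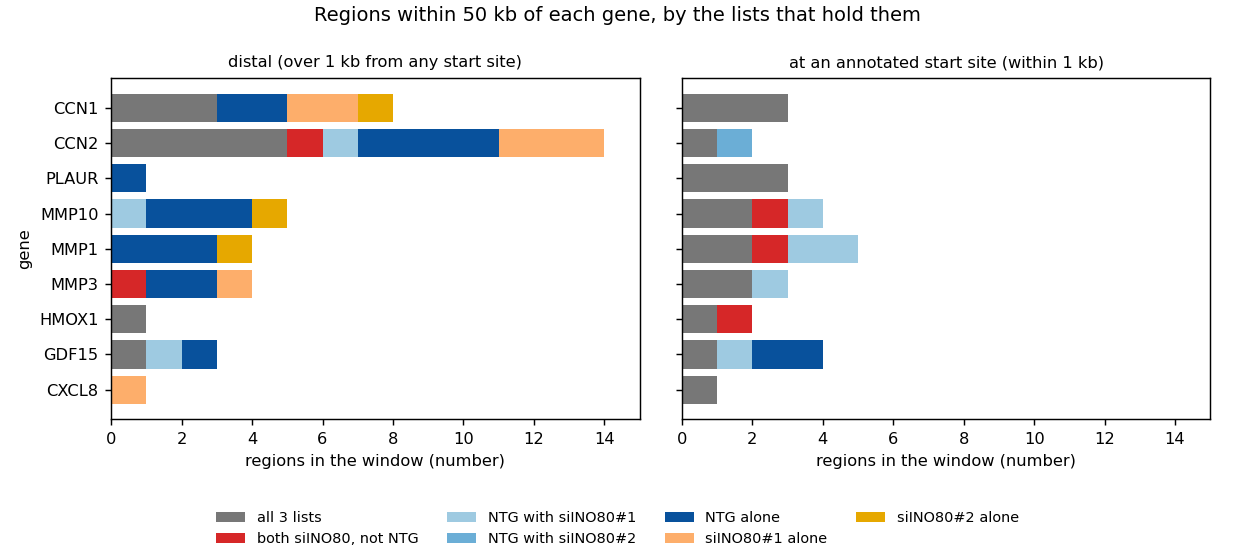
Number of regions in the window of each gene, distal on the left and at any annotated start site on the right, colored by the lists that hold them. CCN2 has 14 distal regions, and red segments (both siINO80, not NTG) appear for CCN2 and MMP3 among distal regions and for MMP10, MMP1 and HMOX1 among start-site regions, where MMP10 and MMP1 share 1 region.

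CCN1 and CCN2 encode matricellular proteins that bind integrins and are targets of YAP with TEAD as well as of AP-1. Their windows were rich in regions, with 11 for CCN1 and 16 for CCN2, against a median of 6 over all protein-coding genes, of 5 on chromosome 1 and of 10 on chromosome 6. The start-site peak of CCN1, at chr1:86046296-86047454 with the summit in a coding exon 621 bp downstream of the start, had a fold enrichment of 3.97 in NTG, 3.49 in siINO80#1 and 3.36 in siINO80#2. Its percentiles were 63.4, 58.4 and 55.6, lower with both siRNAs. CCN1 had 3 distal regions in all 3 lists, all downstream of the gene. The highest by its smallest percentile lay at chr1:86094395-86095879, 48.6 kb downstream, with 6.79-fold in NTG, 7.61-fold in siINO80#1 and 7.93-fold in siINO80#2. The region 26.5 kb downstream, which was singled out after its values were seen, had 4.57-fold, 7.14-fold and 8.24-fold in the same order, and its percentile went from 72.0 in NTG to 91.6 and 96.1. The other 5 distal regions of CCN1 were each in 1 list, 2 in NTG, 2 in siINO80#1 and 1 in siINO80#2. A start-site region in all 3 lists, 18.5 kb downstream at a non-coding RNA, held the AP-1 heptamer 22 bp from its summit, and its fold enrichment was 6.22 in NTG, 4.72 in siINO80#1 and 2.73 in siINO80#2.

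The start-site peak of CCN2, at chr6:132270573-132272797 with its summit 78 bp upstream of the start, was high in every list. It reached 5.68-fold in NTG, 6.77-fold in siINO80#1 and 5.23-fold in siINO80#2, with percentiles of 82.3, 90.1 and 83.3. The peak was 383 bp wide in NTG and 393 bp in siINO80#2 but 2222 bp in siINO80#1, where it extended into the gene. The 200 bases before the start are shown because this promoter is a textbook TEAD target. Capitals mark its 3 GGAATG matches, which lay 15, 24 and 89 bp from the summit. It held no AP-1 heptamer.
CCN2 sequence before the start, chr6:132272513-132272712, minus strand: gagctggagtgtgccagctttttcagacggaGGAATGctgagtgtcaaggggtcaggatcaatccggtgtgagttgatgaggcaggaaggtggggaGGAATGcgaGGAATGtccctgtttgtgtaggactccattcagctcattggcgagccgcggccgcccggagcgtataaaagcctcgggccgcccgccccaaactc

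Of the 14 distal regions of CCN2, 5 were in all 3 lists. The region 13.2 kb downstream, at chr6:132258631-132259788 in an intron of LINC01013, had 9.38-fold in NTG, 10.1-fold in siINO80#1 and 9.34-fold in siINO80#2, at percentiles of 96.6, 97.8 and 97.8. The region 7.7 kb upstream reached 9.29-fold in NTG, 7.70-fold in siINO80#1 and 6.10-fold in siINO80#2. In NTG these 2 had the highest fold enrichment of all regions in the 9 windows. In NTG alone CCN2 had 4 distal regions. The one of highest fold enrichment, at chr6:132318791-132319603 and 47.0 kb upstream, had 3.56-fold and lay beside the region found with both siINO80 siRNAs. Thus the far upstream end of the CCN2 window held 1 region of each kind.

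PLAUR encodes the receptor of urokinase. Its window held 4 regions, which equals the median of chromosome 19. The start-site peak, at chr19:44172532-44173537 in an intron 1282 bp downstream of the MANE Select start, had 5.51-fold in NTG, 4.86-fold in siINO80#1 and 4.41-fold in siINO80#2, with percentiles of 80.9, 77.7 and 74.2. The only distal region, at chr19:44156322-44156602 in a coding exon of PLAUR, was in NTG alone with 3.39-fold. Neither held the AP-1 heptamer within 100 bp of the summit. The remaining 2 regions were starts of IRGQ and ZNF428, in all 3 lists.

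MMP1 encodes interstitial collagenase, and MMP3 and MMP10 encode the stromelysins, which cleave other matrix proteins and activate collagenase. Their windows together held 12 regions, 7 of them distal, and none of the 7 was in all 3 lists. MMP10 was the only member with a start-site peak in both siINO80 lists and not NTG, which 0.944% of protein-coding genes had. MMP1 had a peak in all 3 lists at chr11:102665216-102665407, 3577 bp inside the gene at an internal annotated start, and none within 1 kb of its MANE Select start. This peak had 6.05-fold in NTG, 4.48-fold in siINO80#1 and 3.76-fold in siINO80#2, and its percentile was 84.9, 73.8 and 64.1. It thus ranked lower with both siRNAs. MMP3 had no start-site peak in any list, as did 34.9% of protein-coding genes. Between MMP10 and MMP1, the region at chr11:102659194-102659489 was in NTG alone with 3.49-fold. The pseudogene WTAPP1 overlaps this cluster, and a start of it held an AP-1 heptamer 90 bp from the summit of a region in NTG (3.73-fold) and siINO80#1 (3.41-fold). The heptamer lay within the NTG peak and outside the siINO80#1 peak.

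HMOX1 had 3 regions in its window, the median of chromosome 22, and no peak within 1 kb of any of its own starts in any list. Apart from the upstream region found with both siINO80 siRNAs, 1 distal region at chr22:35746475-35747100, 30.1 kb upstream, was in all 3 lists with 2.91-fold in NTG, 2.51-fold in siINO80#1 and 2.54-fold in siINO80#2. The third region was the start of MCM5. It had 4.99-fold in NTG, 3.24-fold in siINO80#1 and 3.18-fold in siINO80#2 and held an antioxidant response element match. The upstream region found with both siINO80 siRNAs held matches to this element too, as well as the AP-1 heptamer, and these overlapped. All of these matches lay within the siINO80#1 peak and outside the siINO80#2 peak, which began at position 35768169.

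GDF15 encodes a secreted cytokine of the TGF-beta superfamily that is induced by cell stress and tissue damage. Of its 7 regions, NTG had all 7, siINO80#1 4 and siINO80#2 2. The peak at its upstream annotated start, chr19:18484798-18485622 and 11.6 kb before the MANE Select start, had 3.72-fold in NTG, 4.16-fold in siINO80#1 and 2.51-fold in siINO80#2, with percentiles of 57.6, 69.6 and 15.9. It held an AP-1 heptamer 88 bp from the summit. The peak at the MANE Select start, chr19:18496456-18497039, was low in the lists that had it. NTG showed 2.78-fold (percentile 23.9) and siINO80#1 2.27-fold (percentile 5.26), and siINO80#2 had none. The intronic region between the starts, chr19:18490954-18491571, was in all 3 lists with 4.84-fold, 4.14-fold and 3.13-fold in the order NTG, siINO80#1 and siINO80#2. The window of GDF15 thus had fewer regions with each siRNA than with NTG. The whole lists held 69730 peaks in NTG, 69333 in siINO80#1 and 53113 in siINO80#2. The regions in NTG alone were 1 distal region (2.51-fold) and the starts of PGPEP1 (3.01-fold) and LRRC25 (3.42-fold). Of all regions in the genome, 24.4% were in NTG alone.

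CXCL8 encodes interleukin-8, a chemokine that attracts neutrophils. Its window had the fewest regions of the 9, with 2 against a median of 7 on chromosome 4. Its start-site peak, at chr4:74606024-74606720 with the summit 65 bp downstream of the MANE Select start, had 3.94-fold in NTG, 5.20-fold in siINO80#1 and 4.58-fold in siINO80#2, and its percentile was 62.5, 80.8 and 76.6. It was thus ranked higher with both siRNAs. The only distal region, 10.8 kb upstream, was in siINO80#1 alone with 5.36-fold (percentile 82.1). The 200 bases before the first annotated start of the gene, which lies upstream of the MANE Select start, are shown for an AP-1 heptamer, in capitals, 137 bp upstream of the MANE Select start and outside the 100 bp searched around the summit. The heptamer lies within the peaks of siINO80#1 and siINO80#2 and outside that of NTG, which begins at position 74606240. The recovered reads at the summit were 18 in NTG, 31 in siINO80#1 and 28 in siINO80#2, and the depth of NTG was lower. The edge of the NTG peak therefore does not show that the heptamer was closed there.
CXCL8 sequence before the first annotated start, chr4:74606036-74606235, plus strand: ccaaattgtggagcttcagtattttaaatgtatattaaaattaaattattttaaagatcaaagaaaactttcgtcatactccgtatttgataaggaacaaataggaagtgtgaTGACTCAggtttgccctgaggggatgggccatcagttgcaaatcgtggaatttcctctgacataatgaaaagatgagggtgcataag

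Across the 9 genes, 6 had a start-site peak in all 3 lists (CCN1, CCN2, PLAUR, MMP1, GDF15 and CXCL8), against 51.3% of protein-coding genes. Counted by list, 6 of 9 had one in NTG and 7 of 9 in each siINO80 list, the difference being MMP10. Of all protein-coding genes 60.9% had one in NTG, 60.5% in siINO80#1 and 53.7% in siINO80#2. The ranks of the start-site peaks did not move one way. Of the peaks in all 3 lists, those of CCN2 and CXCL8 ranked higher in both siINO80 lists, those of CCN1, PLAUR and MMP1 ranked lower in both, and the upstream start of GDF15 went up with siINO80#1 and down with siINO80#2. The CCN2 percentile was nearly the same in NTG (82.3) and siINO80#2 (83.3), where its fold enrichment was lower (5.23 against 5.68). Over all 22 member regions in 3 lists, 8 ranked higher in both siINO80 lists, against 29.0% of such regions in the genome, and 9 ranked lower in both, against 42.9%. The other 5 moved one way with one siRNA and the other way with the other, against 28.1%. For reference, the median percentile of start-site peaks of protein-coding genes was 72.5 in NTG, 71.4 in siINO80#1 and 70.6 in siINO80#2.

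**Figure D3:**
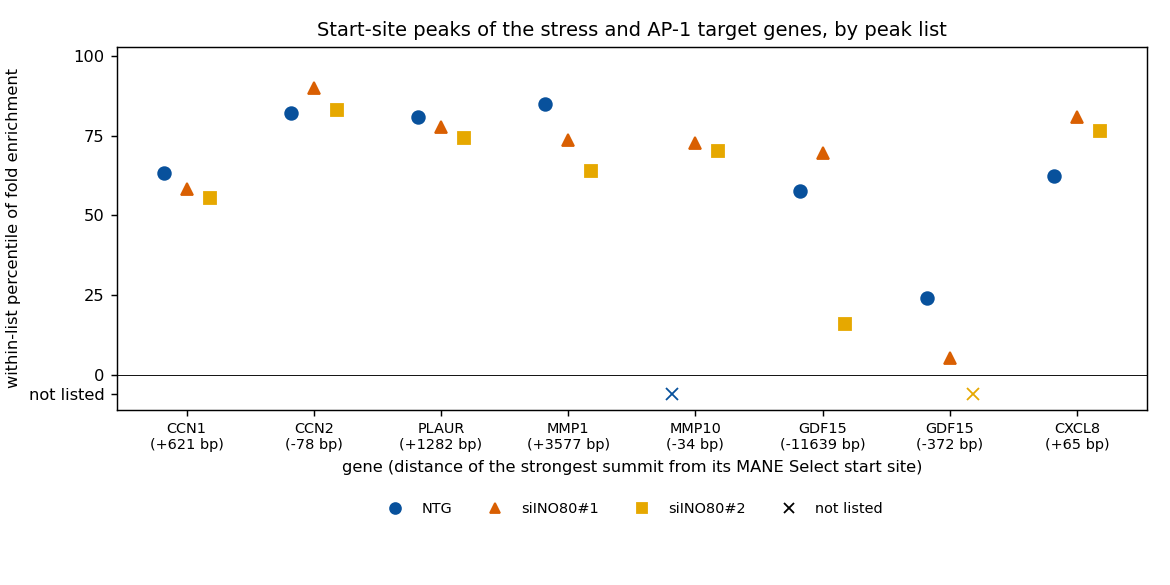
Within-list percentile of fold enrichment (vertical axis) of the start-site peaks of the genes, in the 3 peak lists, with the distance of the strongest summit from the MANE Select start in bp under each gene. A cross marks a list without a peak: MMP10 has none in NTG and the MANE Select start of GDF15 none in siINO80#2, and MMP3 and HMOX1, with no start-site peak, are not drawn.

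**Figure D4:**
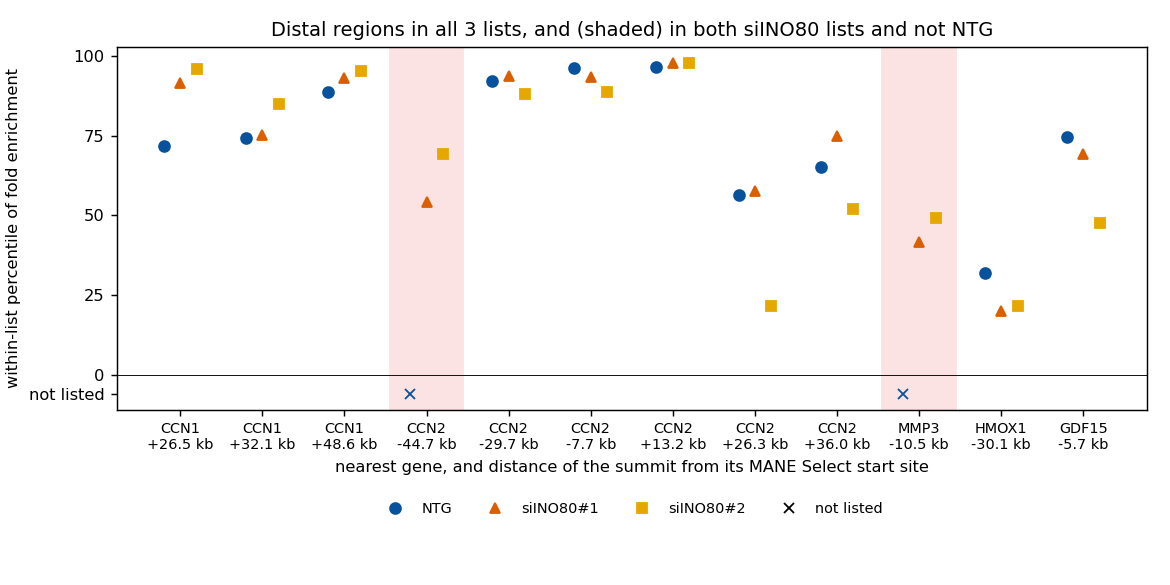
Within-list percentile of fold enrichment of the 10 distal regions in all 3 lists and, shaded, the 2 distal regions in both siINO80 lists and not NTG, with the nearest gene and the distance to its MANE Select start. The CCN1 region at 26.5 kb goes from 72.0 in NTG to 91.6 and 96.1, and the GDF15 region at 5.7 kb from 74.7 to 69.4 and 47.7.

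The regions were next searched for 7 motifs on both strands within 100 bp of the strongest summit. A match is a description of the sequence and not evidence of binding. The AP-1 heptamer was in 6 of 55 member regions, or 10.9%, and in 11.8% of all regions. By kind, it was in 4 of 20 start-site regions, against 7.05% in the genome, and in 2 of 35 distal regions, against 13.0%. The 6 were the CCN2, MMP3 and HMOX1 regions found with both siINO80 siRNAs, the non-coding start 18.5 kb from CCN1, the WTAPP1 start and the upstream start of GDF15. Thus 3 of the 6 were in both siINO80 lists and not NTG, as were 14.0% of the 13178 heptamer regions of the genome. These counts are of joined regions, and a heptamer need not lie within the peak of every list. At HMOX1 the heptamers lay outside the siINO80#2 peak. Among distal regions the heptamer was in 2 of 2 with both siINO80 siRNAs and in 0 of the other 33, against 11.8% of distal regions outside this class in the genome. In the genome it was in 32.9% (31.6 to 34.2) of the 5120 distal regions with both siINO80 siRNAs, in 23.4% of those in all 3 lists and in 5.19% of those in NTG alone. The heptamer, the cAMP response element TGACGTCA and the antioxidant element can share bases.

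TEAD matches were in 8 member regions (13.3% of all regions), 7 of them within 50 kb of CCN1, CCN2 or GDF15 and the last at MMP10. Antioxidant response elements (TGACNNNGC), the sites of NRF2 with small MAF proteins, were in 5 member regions (9.43% of all regions), 2 of which lay near HMOX1, 1 near CCN1, 1 near MMP1 and 1 near CXCL8. The motif of NF-kB, which also drives CXCL8, was near the summit of 3 regions (2.35%), at CCN2, at MMP1 and upstream of MMP3. The match upstream of MMP3 ended just before its peak began. None was within 100 bp of the CXCL8 summit. That search did not reach the CXCL8 sequence printed above, so it says nothing about NF-kB sites there. The cAMP response element TGACGTCA (0.334%), the C/EBP-ATF composite TGATGCAA (0.849%) and the CArG box bound by SRF (1.07%) were in 1 region each, at the IRGQ start near PLAUR, near CCN1 and near CCN1.

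**Figure D5:**
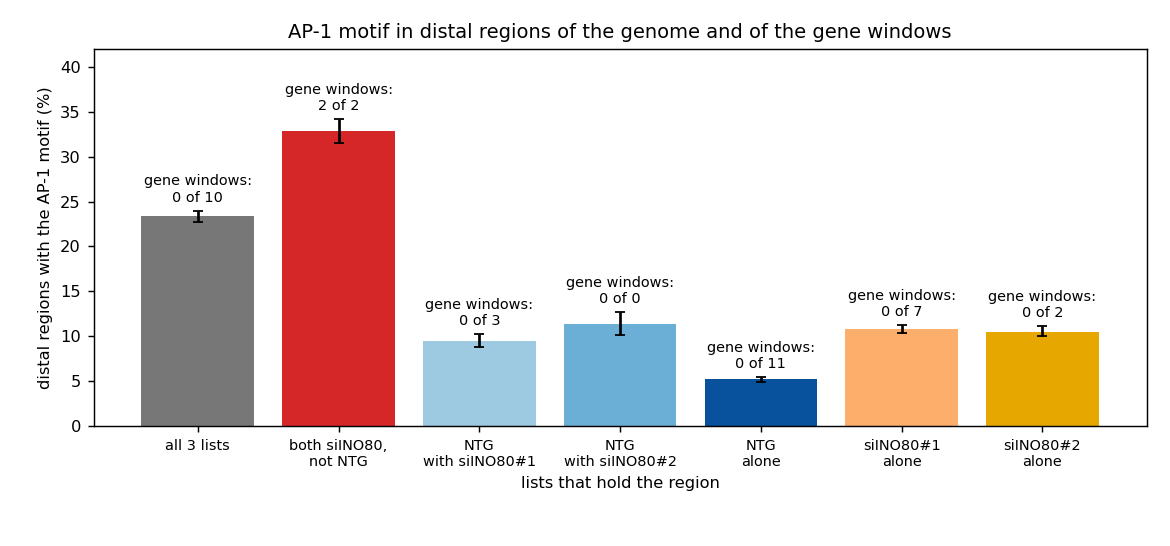
Share of distal regions of the genome with the AP-1 heptamer within 100 bp of the summit, by the lists that hold the region, with exact 95% binomial intervals. The numbers above the bars count the distal regions of the 9 gene windows, 2 of 2 with both siINO80 siRNAs and 0 in every other class.

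Other genes of the same pathways, on lists taken from textbook knowledge, were counted in the same way. Of 26 other AP-1 target genes, 9 had at least 1 distal region with both siINO80 siRNAs and not NTG, or 34.6%, led by DUSP5 (3 regions), a phosphatase of ERK, and by AREG, an EGF receptor ligand (2 regions). Of 17 other stress response genes, 2 had one, or 11.8%, namely TXNRD1, a thioredoxin reductase, and GCLC, the catalytic subunit of the enzyme that limits glutathione synthesis. The 9 members, with 2 of 9, lay between these lists and near the 19.0% of all genes. Of 10 liver marker genes, listed for the check of the cells, 6 had one, or 60.0%. The windows of the lists were not equally rich in regions. They held a median of 13 regions for the liver markers, 7 for the AP-1 targets and for the members, 8 for the stress genes and 6 for all genes. The shares were not adjusted for this. A start-site peak in all 3 lists was found for 11 of 26 AP-1 targets and for 15 of 17 stress genes. IL6, an inflammatory cytokine named after its value was seen, was the only gene of these lists that, like MMP10, had a start-site peak in both siINO80 lists and not NTG.

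The label of the cells was checked against markers. Of 10 liver genes, 9 had a start-site peak in NTG, 8 in siINO80#1 and 7 in siINO80#2. Of 9 markers of other cell types in the annotation, 1 had one in NTG, 1 in siINO80#1 and 0 in siINO80#2. FGB, the fibrinogen beta chain, had none in any list.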

How the data were processed

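ATAC-seq was carried out on 9 samples of HepG2 cells, 3 for each of NTG, siINO80#1 and siINO80#2, grouped by their titles. Per the labels, the data were processed with Trim Galore 0.4.1, Bowtie2, SAMtools, MACS2 and deepTools 2.2.4 on hg19, without a stated role for each. The handling of the transposase offset is not given in the sources used here. The authors deposited 1 peak list per siRNA. Fold enrichment, a ratio of the summit to the local background, was computed by the authors' peak caller, and the deposited p and q are −log10 values. The integer score column deposited by the authors was not used. There were 0 columns of other series. The lists skip some peak numbers, and the criterion of that filter was not tested.

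Peaks of the 3 lists were merged from 1 bp of overlap and annotated with GENCODE release 44 lifted to GRCh37, which gave 220821 start sites. On this build 0 summits fell on unknown bases and 0 peaks ran past a chromosome end. Distances run to the MANE Select start. Reads at the summit, which are extended reads piled up, were recovered from fold enrichment and −log10 p for 110 member peaks on the formulas of MACS2, with an error of at most 3.37e-05 in −log10 p, whereas the next whole number missed by at least 0.00878. Relative read numbers were taken from the lowest background of each list, divided by the length of its shortest peak. The backgrounds were 3.82 in NTG, 5.16 in siINO80#1 and 5.34 in siINO80#2, and the lengths 148, 140 and 144 bp. These numbers rest on the same formulas. Scaling by the lowest background alone would raise the scaled reads. The fewest reads at any listed peak were 12 in NTG, 14 in siINO80#1 and 15 in siINO80#2. Total read numbers are unknown. Shares have exact Clopper-Pearson 95% intervals, which cover counting error only and treat neighboring regions as independent. No test was made, because each group had 1 list.

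The members, gene lists, motifs and rules were chosen with earlier results of these data known. Named regions were every start-site region of a member, every distal region in both siINO80 lists and not NTG, the distal region in all 3 lists of highest smallest percentile for each member, and the 3 distal NTG-alone regions of highest fold enrichment. Of each list of other genes the 3 with most distal regions in both siINO80 lists and not NTG were to be named, where so many had one, and 1 of these genes and 1 sequence are not reported here. Sequences were planned for distal regions in both siINO80 lists. All other named regions and sequences were chosen after their values were seen. The merging, the recovery of reads and the motif search were tested on simulated data and recovered 100% of cases. The tools were bedtools 2.31.1 and, in Python 3.11.15, pysam 0.24.0 for the sequences, pandas 2.3.3 with numpy 2.4.6 for the counts, matplotlib 3.10.9 for the plots and scipy 1.17.1 for the intervals. The alternatives were a −log10 q of at least 5, equal list size, an overlap of 50%, merging within 500 bp, windows of 10 kb and 100 kb, a start-site distance of 2.5 kb, protein-coding starts alone, and a motif search over the whole region.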

Additional observations from a re-analysis of the deposited data

Results flagged for a closer look

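The peak at the upstream annotated start of GDF15 ranked higher than in NTG with siINO80#1 and lower with siINO80#2. Its within-list percentile differed from that of NTG by 12.0 points with siINO80#1 and by -41.7 points with siINO80#2. Of 11 measures examined, 9 had a value in all 3 lists, and it was the only one of these in which the 2 siRNAs went opposite ways. Among regions in all 3 lists, 5 of 22 around the members and 28.1% in the genome did so. The percentiles come from lists of different length and are ranks, not signal. With 1 list per siRNA, the difference was not tested.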

How the results depend on the processing

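No paired analysis was possible because the replicate letters carry no values once the 3 samples of an siRNA share a list, and for the same reason no replicate could be left out. Of 118 alternative values, 89 stayed within 1.5 times the reported value, or within its interval for a share, and 29 moved. None reversed (0), since these are counts and shares with no sign. A −log10 q of at least 5 left 0 distal regions in both siINO80 lists and not NTG, hence 0 members with one and a share of 0%, and it left 3 regions in NTG alone (2 of them distal), 2 in siINO80#1 alone and 1 in siINO80#2 alone. At equal list size there were 2 regions in NTG with siINO80#2, 2 in siINO80#1 alone and 7 distal regions in NTG alone. A window of 10 kb held 12 regions in all 3 lists (3 distal), 2 in both siINO80 lists and not NTG (0 distal, so 0 members and a share of 0%), 2 in NTG with siINO80#1, 0 in NTG with siINO80#2, 2 in siINO80#1 alone and 1 in siINO80#2 alone. A window of 100 kb held 36 in all 3 lists (18 distal), 11 in NTG with siINO80#1 and 2 in NTG with siINO80#2. It also held 26 in NTG alone (22 distal), 19 in siINO80#1 alone and 4 in siINO80#2 alone. Of its 71 distal regions, 3 were in both siINO80 lists and not NTG, or 4.2%. Because windows overlap, these 3 regions counted for 5 members, and no share of all genes is given for this window. By construction, a wider window holds more regions and a narrower one fewer, and a cut on −log10 q or on list size removes peaks. Beyond that, the cause was not tested for the alternatives. The AP-1 share of 100% rests on 2 regions and had no value where none was left. Every count of members is small, and the depth of each list limits which low peaks are listed.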
